A study of Mus musculus with 23 samples.

Results

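The efferocytosis genes described here are 10 genes of receptors, bridging molecules and engulfment adaptors: Mertk, Cd36, Lrp1, Gas6, Pros1, Mfge8, Anxa1, Elmo1, Dock1 and Gulp1. They were chosen by name, and each was found once among the 35825 genes of the normalized count table; 10 of the 10 passed the filter on low values, as did 17102 genes in all. The data are 23 RNA-seq libraries of retinal microglia sorted by their GFP from mice. Control mice, called WT, carried CX3CR1-GFP, a GFP allele at the Cx3cr1 locus, and KO libraries came from Spp1 KO mice with the same GFP allele, so every group carried the reporter. Each genotype was sampled without injury (naïve, 4 libraries each), 4 weeks into raised intraocular pressure (IOP) caused by microbeads (4 each), and on day 7 of optic nerve crush (ONC), a mechanical injury behind the eye (3 WT and 4 KO). Retinas of several mice were pooled for a library, the study's methods say that both sexes were used while the labels give no sex, Spp1 was deleted in all cells rather than in a chosen cell type, and the labels give no age. Nothing in the labels ties replicates to separate pools, so the p-values measure the spread between libraries.

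Efferocytosis is the uptake of dying cells. A dying cell exposes phosphatidylserine, soluble bridging molecules bind that lipid at one end and a receptor at the other, and the receptor drives an actin-based engulfment through adaptors and Rac GTPases. MERTK is a receptor tyrosine kinase of the TAM family, GAS6 and PROS1 are its ligands, MFGE8 bridges phosphatidylserine to integrins, and in the retina the MERTK route is best known for the daily uptake of photoreceptor outer segments by the pigment epithelium. Microglia use the same molecules to clear dying neurons.

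The libraries held 22180480 to 30296094 reads on genes, so a gene with no read could still have up to 3 reads, or 2.41 to 4.03 normalized counts by library, by counting error alone. Spp1, the deleted gene, was at 334 to 22906 normalized counts in the 11 WT libraries. In the 12 libraries labelled KO it ranged from 6.78 to 6811, and 6 of them were at 100 or more: KO naïve replicate 1, KO IOP replicates 2 and 4, and KO ONC replicates 1, 2 and 4. KO below means a library labelled KO. Cx3cr1, the locus of the reporter, was at 952 to 1233 in KO IOP, at 9417 to 26283 in KO naïve and at 26836 to 54612 in WT IOP. Whether the KO IOP mice had the same number of GFP alleles as the others was not tested. The low Cx3cr1 of KO IOP and the labelled difference cannot be told apart where KO IOP is compared with WT IOP or KO naïve. Ddx3y, a Y-linked gene, was at 0 to 3.05 normalized counts in the 4 KO IOP libraries and at 0 to 28.1 in WT naïve replicate 3, WT ONC replicates 2 and 3 and KO naïve replicate 3, against 556 to 2623 in the other libraries. All 4 WT IOP libraries (633 to 2274) and KO naïve replicates 1, 2 and 4 (1302 to 1713) were among the high ones, so KO IOP also differed in sex from WT IOP and from those KO naïve libraries, and sex and the labelled difference cannot be told apart there. Of the 10 microglia markers (P2ry12, Tmem119 and others), 10 were detected in each group, and their sum was 402903 to 1219150.0 normalized counts in 20 libraries but 261229, 277834 and 312766 in KO naïve replicates 1, 2 and 4. These 3 libraries also had the highest sums of 10 rod photoreceptor markers (635928 to 726081, against 181518 to 594879 in the other 20) and of 8 pigment epithelium markers (16643 to 53386, against 344 to 14829). WT IOP replicates 1 and 4 had 218362 and 240063 normalized counts in 8 lens markers, against 33232 and 50612 in replicates 3 and 2 and at most 3986 in any other group. Their microglia sums were also lower, at 402903 and 452214 against 692957 and 728262 in replicates 2 and 3. Their rod sums were higher, at 540987 and 594879 against 388257 and 428945 in replicates 2 and 3. Results that rest on these libraries are given with and without them.

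Per kilobase of exon, Pros1 was the most abundant of the 10 genes in WT naïve microglia, at 4396 ± 742 normalized counts per kb (SD, n = 4), and its libraries lay above those of the other 9. Mertk followed at 1796 ± 258, Lrp1 at 1239 ± 153, Gas6 at 1130.4 ± 1243, Elmo1 at 1022 ± 211 and Mfge8 at 967 ± 42.7, and each of these overlapped the next in its range over libraries. A gap separated Mfge8 from Cd36 (278 ± 129), after which Dock1 (140.4 ± 14.7), Anxa1 (99.5 ± 29.6) and Gulp1 (77.6 ± 15.2) again overlapped in turn. The length is the union of all annotated exons, and for Elmo1 this is 12.58 kb against 5.464 kb for its longest transcript; on longest transcripts Elmo1 would stand at 2354 per kb and Mfge8 at 1948, next after Pros1 at 5440.3. In WT ONC microglia Gas6 moved to the second place, at 3002 per kb, and its libraries did not overlap those of Mertk, the next gene.

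**Figure D1:**
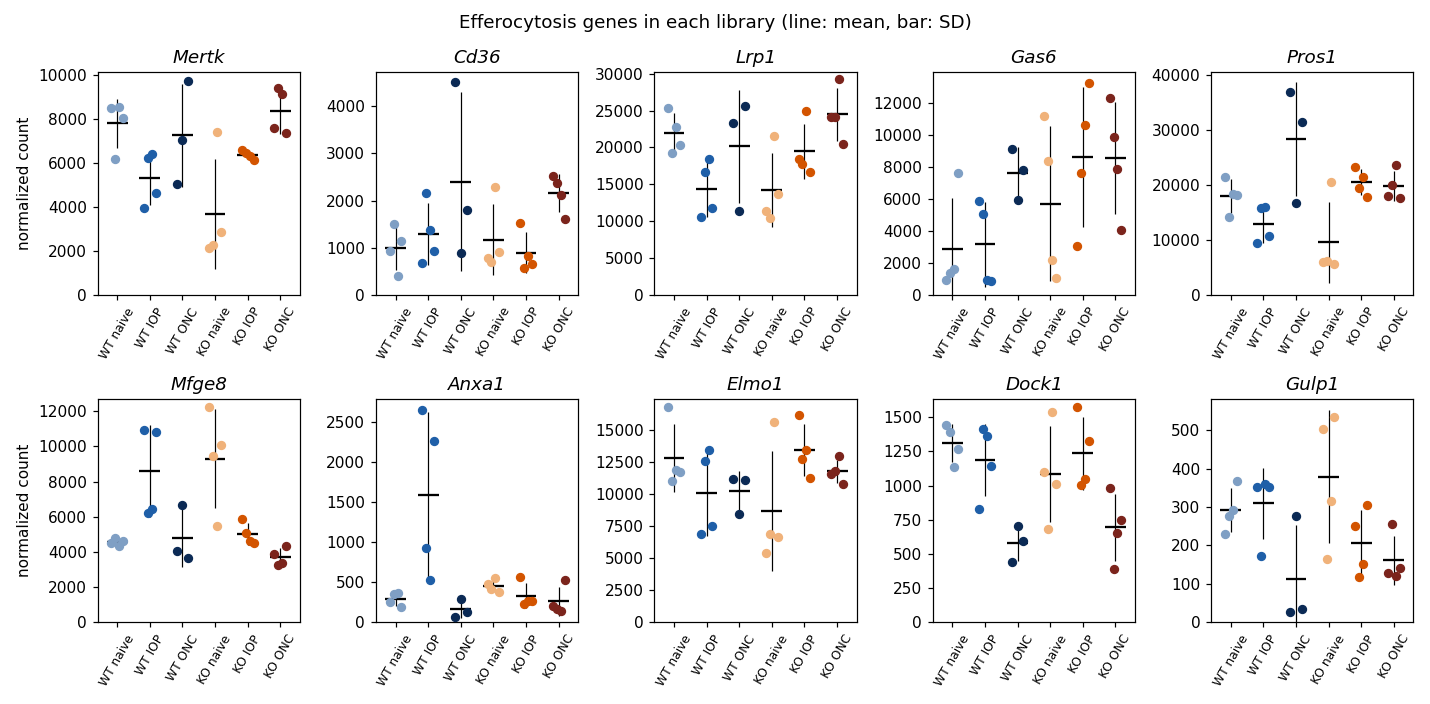
Normalized counts of the 10 genes (y axes, linear, from 0) in each of the 23 libraries, by group; points are libraries, horizontal lines means and vertical bars SDs. Mertk and Pros1 show 3 KO naïve libraries far below the fourth, Anxa1 is high in 2 of the 4 WT IOP libraries, and Gas6 spreads from 833 to 13282.

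The promoters of 5 members are printed so that the genes that followed the microglia markers (Mertk, Pros1 and Elmo1) can be read beside Mfge8, which ran against them, and Anxa1, which was high in WT IOP. RefSeq promoters (GRCm38.p6, 250 bases before to 50 after the annotated start) matched all 10 members, with 2 for Elmo1, of which the upstream one is shown. Capitals mark, on either strand, CCGCCC, which Sp1-type factors bind, then GAGGAAGT, which PU.1, the main macrophage factor, binds, then TATAAA, the core promoter element, and TGACTCA, which AP-1 binds.
Mertk, chr2:128698665-128698964, plus strand: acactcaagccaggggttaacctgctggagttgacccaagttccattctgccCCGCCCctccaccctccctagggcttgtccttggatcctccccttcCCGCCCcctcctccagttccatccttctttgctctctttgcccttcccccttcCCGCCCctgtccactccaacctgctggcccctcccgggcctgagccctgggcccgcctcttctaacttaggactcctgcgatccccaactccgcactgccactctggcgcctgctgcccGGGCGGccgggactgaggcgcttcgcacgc
Pros1, chr16:62854057-62854356, plus strand: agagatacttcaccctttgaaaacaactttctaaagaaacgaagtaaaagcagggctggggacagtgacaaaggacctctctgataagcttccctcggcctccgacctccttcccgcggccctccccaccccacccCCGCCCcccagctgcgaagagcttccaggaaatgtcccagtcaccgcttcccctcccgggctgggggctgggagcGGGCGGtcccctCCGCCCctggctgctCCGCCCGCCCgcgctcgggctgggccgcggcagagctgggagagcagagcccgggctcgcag
Elmo1, chr13:20090257-20090556, plus strand: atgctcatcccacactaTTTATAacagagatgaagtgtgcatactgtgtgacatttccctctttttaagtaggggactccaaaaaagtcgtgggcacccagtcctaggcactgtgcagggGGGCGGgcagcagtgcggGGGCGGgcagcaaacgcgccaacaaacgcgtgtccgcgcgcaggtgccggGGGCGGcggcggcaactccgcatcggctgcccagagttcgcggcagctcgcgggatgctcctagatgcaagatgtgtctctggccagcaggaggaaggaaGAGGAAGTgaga
Mfge8, chr7:79149011-79149310, minus strand: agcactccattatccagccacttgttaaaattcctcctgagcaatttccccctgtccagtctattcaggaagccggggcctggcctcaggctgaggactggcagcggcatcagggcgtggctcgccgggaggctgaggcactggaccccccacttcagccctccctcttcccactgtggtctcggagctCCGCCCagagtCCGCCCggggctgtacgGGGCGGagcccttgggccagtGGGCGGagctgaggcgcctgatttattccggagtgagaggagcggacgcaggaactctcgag
Anxa1, chr19:20390622-20390921, minus strand: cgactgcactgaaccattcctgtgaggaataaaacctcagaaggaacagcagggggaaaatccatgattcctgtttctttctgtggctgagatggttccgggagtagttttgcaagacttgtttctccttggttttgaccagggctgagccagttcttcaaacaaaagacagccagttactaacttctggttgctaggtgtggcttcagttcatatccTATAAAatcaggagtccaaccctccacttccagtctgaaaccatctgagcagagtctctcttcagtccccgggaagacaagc
CCGCCC was present in the promoters of 9 of 10 members and in 35.7% of all 32851 promoters of the table, with 4 copies each in Mertk, Gas6 and Mfge8 and 5 in Pros1, of which 2 overlap. Anxa1 had 0 copies and a TATAAA at 32 bases before its start. TATAAA was otherwise found in Elmo1 (13.6% of all promoters), in reverse orientation at position -233 from the start, whereas the Anxa1 match was forward. GAGGAAGT was found in Elmo1 (3.2% of all promoters) and TGACTCA in 0 of the 10 (5.2%). GC content ran from 43.0% in Cd36 to 70.7% in Dock1. A match describes these letters in this window and is not a binding site.

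In WT microglia after IOP elevation, 1 member was called (Anxa1, higher), where 1.56% of all genes tested were called. A call required a Benjamini-Hochberg adjusted p under 0.05 over 17102 genes and an absolute log2 fold change over 0.58 in limma. By role, the receptors had lower means than in naïve retinas for Mertk and Lrp1, and Mfge8 among the bridging molecules had a higher mean, but their adjusted p missed the threshold. WT IOP replicates 1 and 4 were the lowest of their group in Mertk, Lrp1 and the microglia sum, and the highest in Mfge8 and the rod sum. The part of these sums was not tested. In 3 members the WT IOP and WT naïve libraries did not overlap (Mfge8, Anxa1 and Lrp1), against 13.8% of all genes.

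Anxa1 encodes annexin A1, a phospholipid-binding protein that is exposed on dying cells and promotes their clearance. Its gene spans 20373428 to 20390944 on chromosome 19 (GRCm38, minus strand). In normalized counts it was at 254, 351, 368 and 185 in the WT naïve libraries and 2657, 931, 523 and 2265 in WT IOP replicates 1 to 4. All 4 IOP libraries lay above the naïve ones, and replicates 1 and 4 stood far above replicates 2 and 3. The log2 fold change was 2.22 (SE, the standard error of the fit, 0.50, with adjusted p = 0.0251). The order of the 4 libraries was close to that of the lens marker sum, which was highest in replicates 1 and 4, and over the 23 libraries log2 Anxa1 and the log2 lens sum had a Pearson r of 0.84 (0.55 within groups), a description of libraries that share their depth and composition. Of the 8 lens markers, 8 were detected in WT IOP, and their part in the difference was not tested. The part of the lower microglia sums and higher rod sums of replicates 1 and 4, given above, was not tested either. Without replicates 1 and 4 the log2 fold change was 1.32 (adjusted p = 0.601), and 0 members were called. The call was also lost without WT IOP replicate 1 or 4, or without WT naïve replicate 1, 3 or 4 (log2 fold change 1.88 to 2.67 over all fits that left out a library, highest adjusted p 0.132).

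In KO microglia Anxa1 was at 478, 411, 546 and 378 in naïve retinas and at 562, 225, 259 and 265 after IOP elevation, and these groups overlapped. KO IOP was thus lower than WT IOP (log2 fold change -2.10, SE 0.50, adjusted p = 0.0302), the 1 member called between the genotypes after IOP elevation, where 2.11% of genes were called. KO IOP replicate 1, at 562, reached into the WT range. Pros1 (higher) and Mfge8 (lower) did not overlap between the genotypes after IOP elevation (13% of all genes) but were not called (adjusted p = 0.218 and 0.0947). Without WT IOP replicates 1 and 4 the log2 fold change was -1.19 (adjusted p = 0.577), and without the libraries labelled KO with Spp1 of 100 or more, which leaves 2 KO IOP libraries, it was -1.78 (adjusted p = 0.224). KO IOP and WT IOP differed in Ddx3y and in Cx3cr1 as given above. The part of either in the difference cannot be told apart from that of the genotype. The call was also lost without KO IOP replicate 2, 3 or 4, or WT IOP replicate 1 or 4, each alone (log2 fold change -2.54 to -1.76, highest adjusted p 0.142). After ONC Anxa1 ran from 64.4 to 283 in WT and from 141 to 524 in KO.

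**Figure D2:**
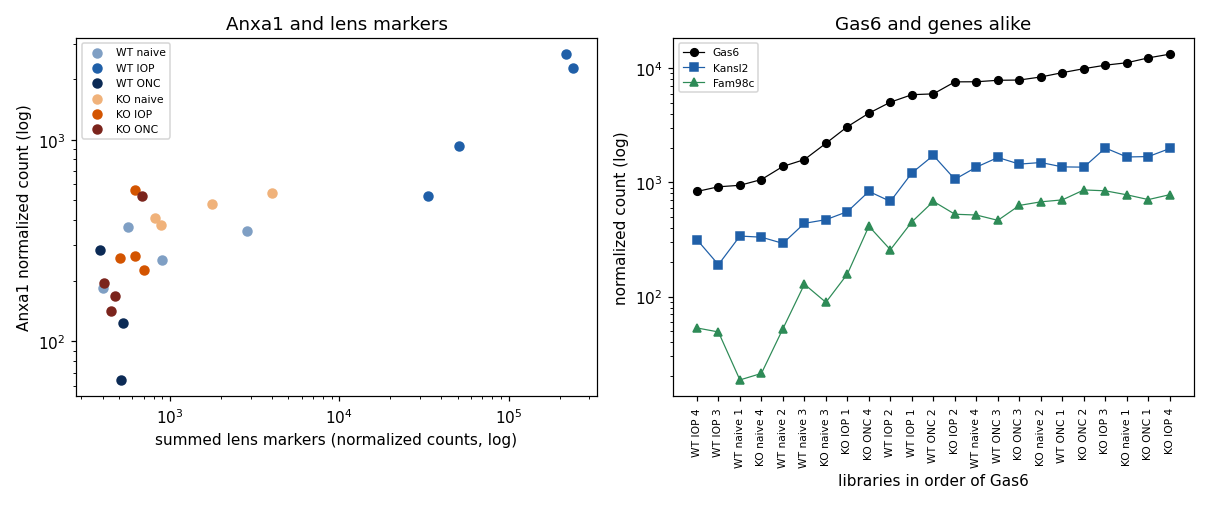
Left: Anxa1 against the sum of 8 lens markers, both as normalized counts on log axes, 1 point a library coloured by group; WT IOP replicates 1 and 4 lie at the top right. Right: normalized counts (log axis) of Gas6, Kansl2 and Fam98c in the 23 libraries in order of Gas6. Kansl2 and Fam98c were picked for their high r with Gas6 over these libraries. That they are also low in the 6 libraries lowest in Gas6 follows from that choice.

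After ONC in WT microglia 2 members were called, both engulfment adaptors and both lower, where 18.1% of all genes were called (10.5% lower). Dock1 encodes the guanine nucleotide exchange factor that works with ELMO1 to activate Rac. It was at 1443, 1392, 1135 and 1269 normalized counts in WT naïve and at 438, 704 and 594 in WT ONC (chromosome 7, plus strand, 134670654 to 135173639). The groups did not overlap (26.4% of all genes did not), and the log2 fold change was -1.20 (SE 0.29, adjusted p = 0.0065). In KO, Dock1 was at 1102, 684, 1535 and 1009 in naïve and at 982, 388, 651 and 749.9 after ONC, with overlap between the groups (log2 fold change -0.66, adjusted p = 0.0749). Dock1 kept its call in WT in 11 of 11 other settings (-1.52 to -1.17) and lost it without WT ONC replicate 1 (highest adjusted p 0.0543). Over the 23 libraries log2 Dock1 had r = -0.16 with the microglia marker sum and 0.74 with the sum of 8 border macrophage markers (0.43 within groups). That sum was 2239 to 8470 in WT ONC against 17536 to 35663 in WT naïve, and its part in the fall of Dock1 was not tested.

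Gulp1 encodes an adaptor that binds the cytoplasmic tail of LRP1 and of other engulfment receptors. It was at 229, 278, 293 and 367 normalized counts in WT naïve and at 26.8, 276 and 35.1 in WT ONC (chromosome 1, plus strand, 44551511 to 44796838). WT ONC replicate 2 lay inside the naïve range, while the other 2 libraries lay far below it; this library also had the lowest microglia marker sum of its group (587075 against 1067939 and 1219150.0) and the highest rod sum (456350.4 against 181518 and 187984), and the part of either was not tested. The log2 fold change was -2.14 (SE 0.59, adjusted p = 0.0153). It was -1.53 without WT ONC replicate 1 or 3 at the weakest, with an adjusted p of up to 0.138. Gulp1 lost its call in 4 of 11 other settings, edgeR and DESeq2 on reads among them (log2 fold change -2.45 to -1.35, highest adjusted p over the other settings 0.139). In KO ONC Gulp1 was at 128, 256, 120.0 and 139.8, against 503, 165, 315 and 535 in KO naïve (log2 fold change -1.16, adjusted p = 0.126). Gulp1 was the member with an unadjusted p under 0.05 between the genotypes after ONC (1.24 higher in KO on the log2 scale, adjusted p = 0.531, where 9.36% of all genes had such a p). There 0 of the 10 members were called in limma, edgeR or DESeq2 (0.0877% of all genes in limma). Spp1 was at 4750, 6811, 15.0 and 6226 normalized counts in KO ONC replicates 1 to 4. Ddx3y was at 1797, 9.21 and 3.51 in WT ONC replicates 1 to 3, against 1369 to 1717 in KO ONC. These libraries therefore cannot show what loss of Spp1 does after ONC. Elmo1, the partner of Dock1, was at 11185, 8473 and 11094 in WT ONC against 11001 to 16801 in WT naïve (log2 fold change -0.32, adjusted p = 0.456).

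The ligands of MERTK were not called after ONC in WT. Gas6 had the largest fitted rise of a member that was not called: it was at 944, 1381, 1584 and 7612 normalized counts in WT naïve and at 9148, 5962 and 7841 in WT ONC (log2 fold change 1.92, SE 0.82, adjusted p = 0.103). WT naïve replicate 4 lay among the ONC libraries, and the other 3 lay below all of them. Pros1, the other ligand, was at 21451, 14051, 18318 and 18057 in WT naïve and at 36768, 16754 and 31391 in WT ONC, with replicate 2 inside the naïve range (log2 fold change 0.60, SE 0.35, adjusted p = 0.235). Cd36, a scavenger receptor for oxidised lipids and apoptotic cells, was at 937, 1510.0, 399 and 1146 in WT naïve and at 4524, 887 and 1796 in WT ONC (log2 fold change 1.11, adjusted p = 0.141). In KO it was at 771, 702, 2283 and 910.2 in naïve and at 2519, 2378, 2126 and 1606 after ONC (log2 fold change 1.05, adjusted p = 0.119). In both genotypes a library of one group lay inside the range of the other.

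In KO naïve libraries the receptor Mertk was lower than in WT naïve, the 1 member called where 0.409% of genes were called. Mertk (chromosome 2, plus strand, 128698956 to 128802894) was at 8464, 6144, 8507 and 8039 normalized counts in WT naïve and at 2113, 2254, 7376 and 2872 in KO naïve replicates 1 to 4. Replicate 3 lay inside the WT range and the other 3 lay below it. The log2 fold change was -1.28 (SE 0.28, adjusted p = 0.0467). Pros1 (chromosome 16, plus strand, 62854307 to 62929346) was split in the same way, at 5887, 6161, 20469.6 and 5563 in KO naïve (log2 fold change -1.15, adjusted p = 0.0852). Elmo1 was at 5419, 6903, 15654 and 6674 and Lrp1 at 11324, 10457, 21511 and 13710.4 in the same libraries, again with replicate 3 alone at the WT level. Mfge8 and Anxa1 were the members whose genotypes did not overlap in naïve retinas (9.6% of all genes), both higher in KO and neither called. Mfge8 (chromosome 7, minus strand, 79133768 to 79149060) was at 12243, 9442, 5452 and 10092 in KO naïve against 4304 to 4782 in WT naïve (log2 fold change 0.98, adjusted p = 0.0562).

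The 3 low libraries are those with the low microglia marker sum, and fewer microglia and less RNA per microglial cell cannot be told apart in bulk libraries. Per 1000 normalized counts of the 10 microglia markers, Mertk was at 9.99 to 11.2 in WT naïve and at 8.09 to 9.18 in KO naïve, replicate 3 included, so KO naïve replicate 3 no longer stood apart, and the KO libraries still lay below the WT ones. Pros1 was at 22.8 to 26.4 and 17.8 to 23.7 on that scale, and Elmo1 at 15.7 to 20.7 and 18.1 to 24.8. Scaled in this way, a setting added after the data were seen that moved the median log2 fold change of all genes to 0.97, Mertk was not called between the genotypes (-0.32, adjusted p = 0.223), and 0 members were. Without KO naïve replicates 1, 2 and 4 the log2 fold change of Mertk was -0.066 (adjusted p = 1.0) and that of Pros1 0.20. Mertk also lost its call without any 1 of the 4 WT naïve libraries or of KO naïve replicates 1, 2 and 4 (log2 fold change -1.69 to -1.09, highest adjusted p 0.207), and without KO naïve replicate 3 alone 5 members were called.

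Over all 23 libraries log2 Pros1 followed the log2 microglia sum with r = 0.97, Mertk with 0.87, Lrp1 with 0.87 and Elmo1 with 0.85, and within groups the values were 0.97, 0.78, 0.90 and 0.91. Each point is a library of mixed cells sharing 1 sort and 1 depth, and the coefficients are a description. Relative to the microglia sum Pros1 stayed between 17.8 and 30.2 per 1000, a 1.70-fold range, while its counts spread 6.61-fold. Within that range the 3 WT ONC libraries held the highest ratios, 28.5 to 30.2. For Mertk the ratio stayed between 6.70 and 11.96 in 22 libraries and was 4.12 in WT ONC replicate 1. Mfge8 went the other way, with r = -0.89 to the microglia sum and 0.88 to the rod sum (-0.89 and 0.87 within groups), and spread 14.5-fold relative to microglia markers.

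**Figure D3:**
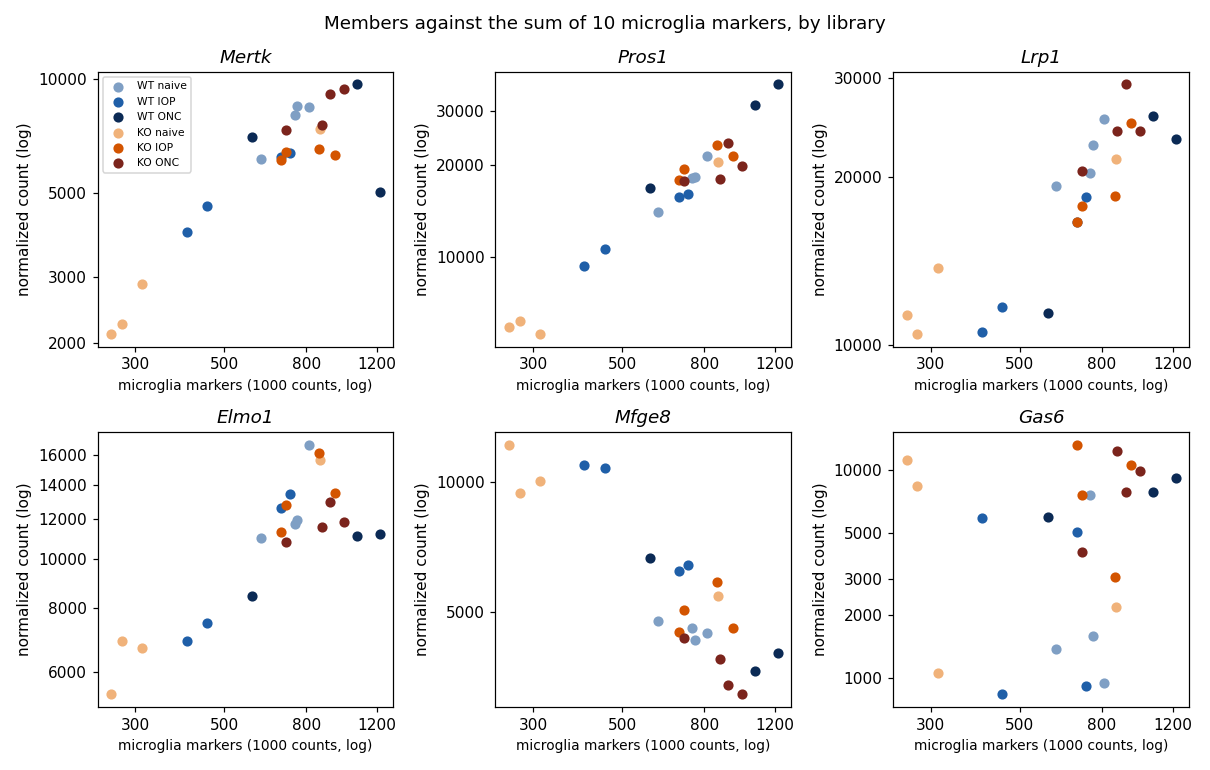
Normalized counts of 6 members (y axes, log) against the sum of 10 microglia markers (x axes, normalized counts in units of 1000, log), 1 point a library, coloured by group. Mertk, Pros1, Lrp1 and Elmo1 climb with the marker sum, Mfge8 falls with it, and Gas6 shows no such order.

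KO microglia after IOP elevation were compared with KO naïve, and 3 members were called where 7.88% of all genes were: the receptor Mertk and its ligand Pros1 higher, and the bridging molecule Mfge8 lower. Mertk in KO IOP was at 6557, 6427, 6314 and 6104 normalized counts, the tightest group of all, and above KO naïve replicates 1, 2 and 4 but under replicate 3 (log2 fold change 1.00, SE 0.28, adjusted p = 0.0369). Pros1 was at 23279, 19436, 21407 and 17814 (log2 fold change 1.35, SE 0.32, adjusted p = 0.0214). Mfge8 was at 5867, 5049, 4598 and 4500.3 (log2 fold change -0.84, SE 0.23, adjusted p = 0.0343). In each of the 3 genes KO naïve replicate 3 lay within or beside the KO IOP libraries. That library was also low in Ddx3y (28.1, against 1302 to 1713 in the other KO naïve libraries), as were the KO IOP libraries (0 to 3.05). The part of sex, or of the low Cx3cr1 of KO IOP given above, in these differences was not tested.

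After ONC in KO, 4 members were called where 23.6% of all genes were. Mertk was at 7553, 9403, 9122 and 7331 (log2 fold change 1.39, SE 0.28, adjusted p = 0.00133), Pros1 at 17928, 19913, 23581 and 17650.2 (1.29, SE 0.32, adjusted p = 0.00556) and Mfge8 at 3894, 3219.6, 3386 and 4357 (-1.28, SE 0.23, adjusted p = 5.41e-04). Mfge8 was the member whose libraries did not overlap with KO naïve (26.5% of all genes did not). Lrp1, a large endocytic receptor that binds calreticulin on dying cells (chromosome 10, minus strand, 127538161 to 127621148), was at 24180.3, 24140.5, 29246 and 20449.7 (0.83, SE 0.25, adjusted p = 0.0205). Its KO ONC replicate 4 lay below KO naïve replicate 3.

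The calls in KO after injury rest on the 3 KO naïve libraries. Without them 0 members were called after either injury, with log2 fold changes after IOP elevation of -0.22 for Mertk and -0.0062 for Pros1, and after ONC of 0.17 for Mertk and -0.060 for Pros1; 1 KO naïve library then remains and is taken to vary like the other groups. Mfge8 kept its direction, at -0.13 after IOP elevation and -0.56 after ONC. Leaving out the libraries labelled KO with Spp1 of 100 or more leaves 3 KO naïve libraries, 2 KO IOP libraries and 1 KO ONC library, which is taken to vary like the other groups. No call then passed, while the log2 fold changes were 0.83 for Mertk, 1.33 for Pros1 and -0.63 for Mfge8 after IOP elevation, and 1.33, 1.41 and -1.25 after ONC with 1.01 for Lrp1. Scaled to microglia markers, Mfge8 was lower in KO after both injuries (-1.93 and -2.49), while that scaling moved the median of all genes to -1.19 and -1.31, Lrp1 turned to -0.38 after ONC and Elmo1 to -0.64.

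After IOP elevation Mertk, Pros1 and Mfge8 lost their calls without KO naïve replicate 1, 2 or 4 (highest adjusted p over all left-out libraries 0.140, 0.0908 and 0.115). Mertk lost it also without any 1 KO IOP library, Pros1 without KO IOP replicate 3, and Mfge8 without KO IOP replicate 2, 3 or 4. Without KO naïve replicate 3, 5 members were called. After ONC Mertk, Pros1 and Mfge8 kept their calls in 8 of 8 such fits, and Lrp1 lost it without KO naïve replicate 1 or 2 or KO ONC replicate 3 (highest adjusted p 0.0799).

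The response to IOP elevation differed between the genotypes in 4 members, by the interaction term in limma, where 8.75% of all genes were called. The difference of log2 fold changes, KO minus WT, was 1.58 for Mertk (SE 0.40, adjusted p = 0.0206), 1.85 for Pros1 (0.45, 0.0183), -1.71 for Mfge8 (0.33, 0.00646) and -2.78 for Anxa1 (0.71, 0.0210). Mfge8 was at 10958, 6221, 6422 and 10819.6 in WT IOP, all above WT naïve (log2 fold change 0.87, adjusted p = 0.0657), with the same 2 libraries high as for Anxa1. Those 2 libraries also had the lowest microglia sums and highest rod sums of WT IOP, and the part of either was not tested. Lrp1 and Elmo1 had differences of 1.14 each (adjusted p = 0.0517 and 0.0579). Sex, the low Cx3cr1 of KO IOP and the labelled difference cannot be told apart in this interaction. Scaled to microglia markers, which moved the median of all genes to -1.54, the differences were 0.084 for Mertk (adjusted p = 0.822) and 0.35 for Pros1 (adjusted p = 0.112), neither called, while Mfge8 (-3.21) and Anxa1 (-4.27) were called. All 4 calls were lost without KO naïve replicates 1, 2 and 4, and all 4 without WT IOP replicates 1 and 4. Without WT IOP replicate 1 or 4 alone, 2 of the 4 remained called, with Mertk and Anxa1 lost, and without KO naïve replicate 2 Mertk was lost (highest adjusted p 0.0556 for Mertk and 0.0591 for Anxa1). The interaction of genotype with ONC called 0 members in limma and edgeR and 1 in DESeq2 (4 at an unadjusted p under 0.05, as had 12.4% of all genes, with 0.0702% called in limma), and without KO naïve replicate 3 limma called 4.

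**Figure D4:**
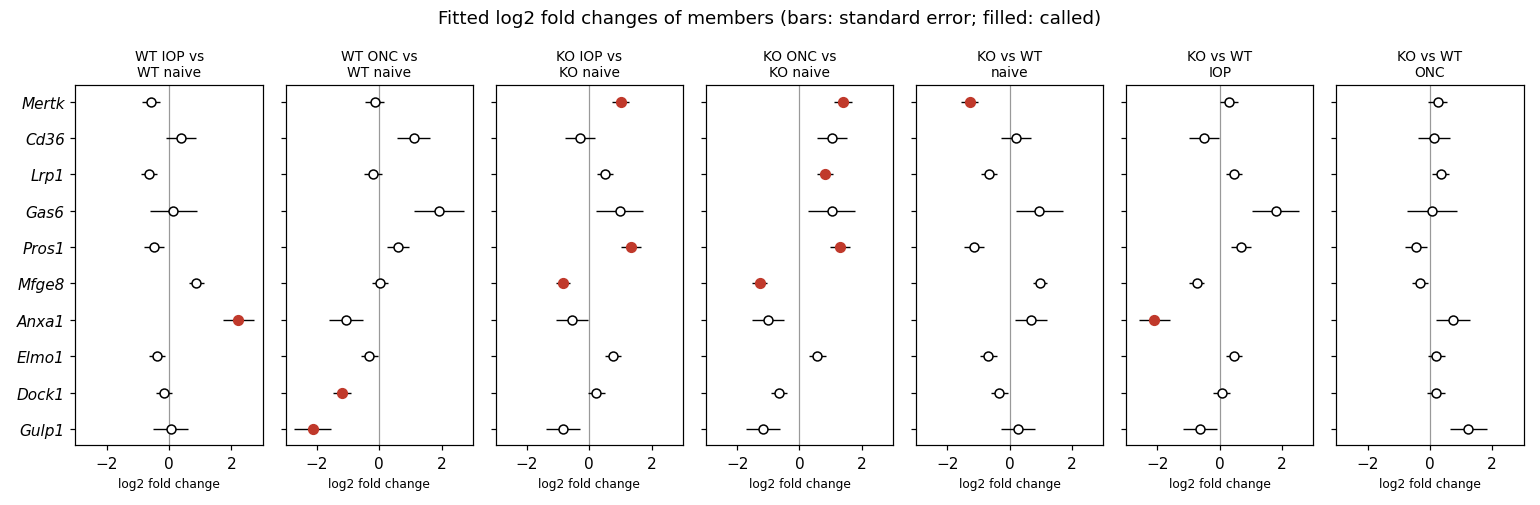
Fitted log2 fold changes (x axes) of the 10 members (rows) in 7 comparisons; bars are standard errors and filled points were called. Calls are 1, 2, 3, 4, 1, 1 and 0 from left to right.

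Gas6 (chromosome 8, minus strand, 13465374 to 13494490) was called in 0 of 9 comparisons in limma, although it spread 15.9-fold over the libraries. In 6 libraries from 3 groups (WT naïve replicates 1 to 3, WT IOP replicates 3 and 4, and KO naïve replicate 4) it was at 833 to 1584, and in the other 17 at 2199 to 13282. Within WT IOP the split was 5865 and 5044 against 916 and 833, and within KO naïve 11170.1 and 8385 against 2199 and 1059.8. Its lowest KO IOP library was replicate 1 at 3077, and the other 3 were at 7597, 10634 and 13282. After IOP elevation KO had a higher mean than WT, 8647 ± 4380.2 against 3164 ± 2666 (SD, n = 4 each), with a log2 fold change of 1.80 (SE 0.76, adjusted p = 0.184). Correlations of Gas6 with the 8 marker sums lay between -0.43 and 0.15. The exons of Tmem255b overlap Gas6 on the opposite strand, and at 49.0 normalized counts or less in every library it stands far below Gas6; whether counting used strand is not stated.

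Kansl2 (r = 0.964) and Fam98c (0.960) were among the genes most like Gas6 over the 23 libraries. In the 6 libraries lowest in Gas6, Kansl2 was at 190.5 to 438, below the 472 to 2001 of the other 17, while Fam98c (18.6 to 128 against 89.1 to 859) overlapped a little. Both were picked by their r with Gas6 over the same libraries, so such low values follow from the choice. Of 17101 other genes, 393 had r over 0.8 with Gas6 and 0 had r under -0.8. For Mertk the nearest genes were Havcr2 (r = 0.962), itself a phosphatidylserine receptor known as TIM-3, Naip5 and Golm1, with 431 genes over 0.8 and 19 under -0.8. Pros1 was most like Adam10 (0.984) and Msn and had 992 genes over 0.8. Mfge8 was most like Plekhb1 (0.949), Zfp365 and Vtn, Anxa1 like Igsf11 (0.888), Lin7b and Ndp, and Elmo1 like Pik3cg (0.943), Fgd3 and Pld1. Lrp1 was most like a gene without a symbol in the table used, then Olfml2b (0.915) and Plxnb2. The best coefficients were lower for Gulp1 (Dgke, 0.911, then Epha8 and Lgi3), Dock1 (Rbsn, 0.859, with Tdrd3 also near) and Cd36 (Ncaph2, 0.806, then Nptn and Aurkb). These coefficients describe libraries that share composition and depth.

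Other genes of the pathway were taken from 5 lists with 71 genes tested: phosphatidylserine receptors (18), other bridging molecules and opsonins (13), engulfment machinery (14), find-me and do-not-eat-me signals (12), and cargo processing with lipid handling (14). In WT after ONC, 12 were called higher and 7 lower, where 18.1% of all genes were called, and their median log2 fold change was 0.31 against -0.10 over all genes. Axl, the TAM receptor related to Mertk, averaged 66002 ± 21624 (SD, n = 3, normalized counts) in WT ONC against 10219 ± 1883 in WT naïve (log2 fold change 2.65, adjusted p = 2.65e-05), while Mertk itself was at 7246 ± 2347 against 7788 ± 1117. Cd300lf, a phosphatidylserine receptor of the CD300 family, was at 1355 ± 516 against 144 ± 10.8 (3.16, adjusted p = 3.63e-05), and Timd4, the TIM-4 receptor of resident macrophages, fell by 3.75 on the log2 scale to 23.3 ± 30.1 (adjusted p = 0.0108). Among opsonins Lgals3, Thbs1 and Anxa5 rose by log2 fold changes of 1.91, 1.47 and 1.19. Of the engulfment machinery Rac1 rose (0.81) and Trio and Vav3 fell (-0.81 and -2.84), but each lost its call in 4 to 6 of the 7 fits that left out a library and in 5 or 6 of 11 other settings, and Vav3 was at -0.92 without WT ONC replicate 1. The find-me and do-not-eat-me list had Cd47, the do-not-eat-me signal, higher (1.28) and the formyl peptide receptor Fpr1 lower (-3.38), and the cargo list Rab5a, Lamp1 and Abcg1 higher (2.90, 1.22 and 1.18). Timd4 moved in the same direction as the border macrophage sum given above, whose part in its fall was not tested. Without WT ONC replicate 1 the 19 calls became 10, with Timd4 at -2.15 and Fpr1 at -1.88 no longer called, and without replicate 2 they became 34.

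In KO after ONC 29 of the 71 were called higher and 5 lower, where 23.6% of all genes were called. Axl was at 54325 ± 6384 (SD, n = 4) against 9073 ± 4726 in KO naïve (log2 fold change 2.70), Cd300lf at 1009 ± 179 against 113 ± 60.3 (3.31), C3 rose by 2.76, Lgals3 by 2.17 and C1qc by 1.93. Rac2, Rhog and Dock2 rose by 2.00, 1.54 and 1.52, Sirpa and P2ry6 by 1.26 and 1.03, and Ucp2, Abca1 and Ppard by 2.13, 1.73 and 1.67, while Cd24a and Adgrb1 had log2 fold changes of -2.13 and -2.36. Without KO naïve replicates 1, 2 and 4, 3 of the 71 were called, and without the libraries labelled KO with Spp1 of 100 or more, which leaves 1 KO ONC library, 3 were. After IOP elevation in KO, 16 were called higher and 1 lower, where 7.88% of all genes were called, and 1 was called without those KO naïve libraries. Among them were Fpr1 (3.69), Cd300lf (2.44), C3 (1.99), Itgb3 (1.90), Lgals3 (1.75), C1qa (1.35), Rac2 (1.33), Axl (1.31), Cybb (1.30), Ucp2 (1.11), Vav1 (1.09), Abca1 (0.94) and Dock2 (0.93), and Cx3cr1, the reporter locus, for which the number of GFP alleles in these mice was not tested, was the gene with a lower value (-4.17). The sum of 8 monocyte and neutrophil markers was also higher, at 509 to 2646 normalized counts in KO IOP against 101 to 460 in KO naïve, with Ly6g, S100a8 and S100a9 under 10 in each of these libraries, and its part in the rise was not tested.

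In WT after IOP elevation 2 of the 71 were called (1.56% of all genes), Lgals3 (log2 fold change 1.40) and Cd24a (2.71), and 0 without WT IOP replicates 1 and 4. Between the genotypes 1 was called in naïve retinas (0.409% of all genes), the cholesterol exporter Abca1 (1983 ± 718 in KO against 4442 ± 1051 in WT, SD, n = 4 each; -1.19, adjusted p = 0.0467), and 0 without KO naïve replicates 1, 2 and 4. After IOP elevation 3 were called (2.11% of all genes): Cd300lf higher in KO (587 ± 229.9 against 148 ± 57.6, 1.99), Cd24a lower (-3.12), and the reporter locus Cx3cr1 (-5.19), with the same limit. Over 13 other settings Cd300lf lost its call in 4 (log2 fold change 1.46 to 2.13) and Cd24a in 2 (-3.65 to -2.29), while Cx3cr1 kept it. KO IOP also differed in sex from WT IOP, as given above. Sex, the low Cx3cr1 of KO IOP and the labelled difference cannot be told apart here or in the interaction below. After ONC 0 were called in limma (12 at an unadjusted p under 0.05, as had 9.36% of all genes), with the limit given above for Spp1 and Ddx3y in the ONC libraries. The interaction with IOP elevation called 12 higher and 3 lower, where 8.75% of all genes were called, among them Rac2 (2.02), Cd300lf (2.51), Itgb3 (2.11), Trem2 (1.47), C1qa (1.61), C1qb (1.55), P2ry12 (1.59), Ucp2 (1.80), Vav1 (1.53), Dock2 (1.43) and Abca1 (1.41), and on the lower side Cd24a (-3.91), Cx3cr1 (-3.71) and Clu (-2.05). It called 1 without KO naïve replicates 1, 2 and 4 and 1 without WT IOP replicates 1 and 4.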

How the data were processed

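RNA-seq of sorted GFP+ retinal microglia gave 23 libraries in 6 groups, grouped by the genotype and treatment in the labels. The deposited table holds normalized counts, a signal that the authors made by dividing each library's reads per gene by a DESeq2 size factor. The study's methods name salmon, and the submitters' processing notes list STAR, DESeq2 and GRCm38; the versions are not given in the sources used here. Every value in all 23 libraries came back as whole reads within 0.01 reads, so depth is known (22180480 to 30296094 reads on genes). No 2 libraries were identical.

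Genes with at least 10 normalized counts in at least 3 libraries (17102) were tested with limma 3.58.1 (R 4.3.3) on log2(normalized count + 1), with 6 groups and a trend. A fold change on this scale understates the change of low genes. P-values were adjusted by Benjamini-Hochberg over all tested genes, and a call needed an adjusted p under 0.05 with a log2 fold change beyond 0.58 in either direction. The 9 comparisons were each injury against naïve within a genotype, KO against WT in each condition, and the interaction of genotype with each injury. Comparisons that use the same naïve libraries share controls. Alternatives were edgeR 4.0.16 and DESeq2 1.42.0 on the recovered reads, other pseudocounts, filters and scalings, a replicate block, and leaving out libraries. The fit was tested on simulated data. Tables were made in Python 3.11.15 with pandas 2.3.3 and numpy 2.4.6, and figures with matplotlib 3.10.9. Gene positions are from GENCODE (GRCm38) and promoters from RefSeq (GRCm38.p6).

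The members and the gene lists were chosen with earlier results of these data known. The text names the 10 members, up to 3 called genes per pathway list and comparison with the largest absolute log2 fold change, genes from the 3 with the highest Pearson r to each member, and Spp1 and Cx3cr1 as checks of the labels. Sums of the Müller glia, endothelium, and monocyte and neutrophil markers were computed in the same way and used in the correlations. Ptk2, Rxra, Aqp4 and Glul were not analysed here, and some results are not reported here.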

Additional observations from a re-analysis of the deposited data

Results flagged for a closer look

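Dixon's gap test at the 95% level was applied to 50 groups of 4 libraries (10 members, 5 groups). In 10 of them the highest or lowest library was set apart from the other 3. For independent groups chance sets apart about 1 in 20. These 50 share libraries, and several members move together, so their number cannot be set against that rate. In KO naïve, replicate 3 stood above the others in Mertk (7376), Pros1 (20469.6), Elmo1 (15654) and Cd36 (2283), and it is the KO naïve library with the highest microglia marker sum (864027 against at most 312766). It is also the KO naïve library with the lowest Ddx3y (28.1 against 1302 to 1713), and the part of either was not tested. In WT naïve, replicate 4 stood apart in Gas6 (7612) and replicate 1 in Elmo1 (16801). Anxa1 had a single high library in KO IOP (replicate 1, 562) and in KO ONC (replicate 4, 524). Gulp1 had a low library in WT IOP (replicate 2, 172) and a high one in KO ONC (replicate 2, 256).

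The response to IOP elevation differed between KO and WT in 4 members by the interaction term in limma. The differences of log2 fold changes were 1.58 for Mertk, 1.85 for Pros1, -1.71 for Mfge8 and -2.78 for Anxa1. KO IOP differed in Ddx3y from WT IOP and from most KO naïve libraries, and was low in Cx3cr1. Sex, the low Cx3cr1 and the labelled difference cannot be told apart there. All 4 calls were lost without WT IOP replicates 1 and 4 and without KO naïve replicates 1, 2 and 4, and when scaled to microglia markers Mertk (0.084) and Pros1 (0.35) were not called.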

How the results depend on the processing

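The counts of members called moved by over 1.5 times as follows. In WT IOP against WT naïve the count of 1 became 2 with DESeq2 and with the replicate block, and 0 when scaled to microglia markers or without WT IOP replicates 1 and 4. In WT ONC against WT naïve the count of 2 became 4 with quantile normalization and 1 with edgeR, with DESeq2 and with the compared groups alone. In KO IOP against KO naïve the count of 3 became 1 with edgeR and 0 with the compared groups alone. Between the genotypes in naïve retinas the count of 1 became 2 with DESeq2, with the replicate block and with a mean of at least 50, 3 with quantile normalization, and 0 with edgeR, with no filter, with upper-quartile rescaling, with the compared groups alone and when scaled to microglia markers. After IOP elevation the count of 1 between the genotypes became 2 with DESeq2 and 0 with the compared groups alone, when scaled to microglia markers and without WT IOP replicates 1 and 4. The interaction with IOP elevation went from 4 to 0 without WT IOP replicates 1 and 4, and that with ONC from 0 to 1 with DESeq2. Without KO naïve replicates 1, 2 and 4, or without the libraries labelled KO with Spp1 of 100 or more, 0 members were called in each comparison that uses them. The causes were not tested, and each setting that leaves out libraries also has fewer of them.

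Leaving out 1 library gave 0 to 2 members for WT IOP, 0 to 4 for WT ONC, 0 to 5 for KO IOP and 3 to 6 for KO ONC, each against naïve. Between the genotypes it gave 0 to 5 in naïve retinas, 0 to 1 after IOP elevation and 0 to 1 after ONC, and for the interactions 2 to 6 with IOP elevation and 0 to 4 with ONC.

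Log2 fold changes that changed sign when scaled to microglia markers were Mertk -0.086, Elmo1 -0.34, Abca1 -0.15 and Dock2 -0.16 (KO IOP against KO naïve), Lrp1 -0.38, Elmo1 -0.64, Cd36 -0.17 and P2ry6 -0.19 (KO ONC against KO naïve), Lrp1 0.29 and Elmo1 0.28 (KO against WT, naïve), and Lrp1 -0.36, Elmo1 -0.35, Trem2 -0.019, Dock2 -0.067 and Abca1 -0.079 (interaction with IOP elevation). Without KO naïve replicates 1, 2 and 4 they were Mertk -0.22, Pros1 -0.0062, Elmo1 -0.23 and Dock2 -0.089 (KO IOP), Pros1 -0.060, Elmo1 -0.41 and Cd36 -0.10 (KO ONC), Pros1 0.20 and Elmo1 0.30 (KO against WT, naïve), and Elmo1 -0.093 (interaction with ONC). Of 1303 values of 102 gene results under these alternatives, 1027 kept their direction and side of the threshold, 233 lost a call, 18 gained one and 25 changed sign. The scaling to microglia markers and the sets without 2 WT IOP or 3 KO naïve libraries were chosen after seeing the data.

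Same-numbered replicates did not pair: the correlation of their deviations ran from -0.25 to 0.23 over 55 pairs, and 7 of 23 libraries correlated best with their own number. With the replicate block the interaction with IOP elevation called 6 members. All members lay above the detection limit in every library, with a lowest value of 26.8 normalized counts against a limit of at most 4.03. That lowest value was Gulp1 in WT ONC replicate 1, and the part of counting error in the Gulp1 result was not tested.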
